A study of Mus musculus with 2 samples.

Results

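The 8 RNAs described here, Snhg1, Snhg3, Snhg6, Snhg8, Snhg12, Gas5, Zfas1 and Epb41l4aos, are transcripts without a long open reading frame whose genes carry small nucleolar RNAs (snoRNAs). They were taken by symbol from a table of 32285 genes, and all 8 were found. They were measured in R1 mouse embryonic stem cells by droplet single-cell RNA sequencing after 72 hours of culture in N2B27 medium, with 1 library per condition. The library named LB came from cells on gelatin given BMP4 and LIF, the cytokine on which self-renewal of these cells depends. The library named LBPXRS came from cells on fibronectin given LIF and BMP4 with PD0325901 (a MEK inhibitor), Xav939 (a tankyrase inhibitor that lowers WNT signalling), SB431542 (an inhibitor of the activin and NODAL receptors) and a compound given as Resorcyclic lactone, whose target the labels do not state. Medium and substrate changed together and cannot be told apart.

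A typical snoRNA is trimmed out of an intron and guides the chemical modification of ribosomal RNA in the nucleolus. The spliced exons of these hosts reach the cytoplasm, are bound by ribosomes and are commonly destroyed by nonsense-mediated decay, which depends on translation, so that such RNAs are known to build up when translation is blocked. Many of them begin, like the messengers of ribosomal proteins, with a run of pyrimidines. Gas5 was first described as an RNA of growth-arrested cells. Chac1, Trib3 and Ddit3, called the trio here, are genes of the integrated stress response: Chac1 encodes an enzyme that breaks down glutathione, Trib3 a pseudokinase and Ddit3 the transcription factor CHOP. The rule for this set asks how the host RNAs relate, cell by cell, to the share of UMIs (unique molecular identifiers, 1 per captured RNA molecule) from that trio.

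In GRCm38 (mm10) the 8 genes hold 29 annotated snoRNA loci within their bounds. Gas5 (chr1:161034422-161038539, plus strand) holds 9 and Snhg1 (chr19:8723475-8726443, plus) holds 8. Snhg12 (chr4:132308623-132311024, plus) holds 4, Zfas1 (chr2:167062934-167065862, plus) 3, and Snhg3 (chr4:132348014-132353686, minus) 2. Snhg6 (chr1:9941959-9944118, minus), Snhg8 (chr3:123507552-123508404, minus) and Epb41l4aos hold 1 each. Snhg12 and Snhg3 are 36990 bases apart on chromosome 4. The gene table lists 0 of the 29 snoRNAs, so every value below is that of a host gene. Of the 29, 3 lie outside all annotated exons of their hosts, and whether reads over snoRNA sequence within the exons enter the host values was not tested. A few of the snoRNAs are shown to make clear what the hosts carry. Each is a box C/D snoRNA, taken from GENCODE M21 transcripts and written 5′ to 3′ as DNA, with the letters of box C (TGATGA) and box D (CTGA) in capitals.
Snord47 in Gas5 (chr1:161038082-161038158, plus strand): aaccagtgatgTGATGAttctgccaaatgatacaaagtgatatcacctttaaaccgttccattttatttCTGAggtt
Gm25855 in Snhg1 (chr19:8723993-8724064, plus strand): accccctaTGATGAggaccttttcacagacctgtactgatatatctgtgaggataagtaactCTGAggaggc
Snord99 in Snhg12 (chr4:132310691-132310764, plus strand): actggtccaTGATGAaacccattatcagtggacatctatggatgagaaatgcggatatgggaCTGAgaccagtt
Snord12 in Zfas1 (chr2:167065276-167065365, plus strand): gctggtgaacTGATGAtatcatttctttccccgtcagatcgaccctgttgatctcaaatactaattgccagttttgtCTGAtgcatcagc

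The starts of 4 hosts are shown because many RNAs of this class are known to begin with a run of pyrimidines. RefSeq promoters (GRCm38.p6) matched 6 of the 8 genes, with 7 entries, since Gas5 has 2. Each window runs from 50 bases before the start to 50 bases from it onward, with the longest run of C and T between 20 bases before and 30 bases after the start in capitals.
Snhg12 (chr4:132308628-132308727, plus strand): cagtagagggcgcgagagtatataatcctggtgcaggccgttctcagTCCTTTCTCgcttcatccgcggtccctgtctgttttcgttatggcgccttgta
Snhg1 (chr19:8723437-8723536, plus strand): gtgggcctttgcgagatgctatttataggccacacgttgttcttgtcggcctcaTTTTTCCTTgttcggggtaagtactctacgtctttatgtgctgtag
Snhg8 (chr3:123508287-123508386, minus strand): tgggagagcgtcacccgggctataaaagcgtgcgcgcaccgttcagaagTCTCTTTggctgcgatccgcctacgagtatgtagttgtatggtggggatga
Gas5, the second entry (chr1:161035116-161035215, plus strand): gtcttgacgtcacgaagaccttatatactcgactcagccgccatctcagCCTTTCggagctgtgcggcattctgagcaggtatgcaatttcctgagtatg
The run was 9 bases long in Snhg12, from base -3 (counted from +1 at the start, with no base 0), and 7 in Snhg8 and 6 in the second Gas5 entry, both from base -1. In these 3 it spanned the start of the promoter entry. That start lies within the gene bounds given above for these 3 genes, not at their edge. The share of all promoters with a run across the start was not counted. In Snhg1 the run of 9 bases began at base 5, after the start, and in Snhg3 a run of 5 (CTTCC) began at base 3. In Zfas1 a run of 4 (CCCC) began at base -6, and in the first Gas5 entry the longest run was 3 (CCC, from base -5), so that neither reached the start. Over 32851 RefSeq promoters of the same length, 12.6% had a run of at least 9 bases in that stretch and 28.6% one of at least 7. The motifs below were searched for in the 300-base promoters on both strands, after the sequences had been seen. TGATGNAA, the core that C/EBP and ATF factors share, was in 3.97% of all promoters and in none of the 7 entries. CACGTG, the E-box, was in 7.15% of all and in none of the 7. TGACGTCA, the cAMP response element, was in 1.79% of all and in 1 entry, the second of Gas5, 46 bases before the start. TATAAA was in 13.6% of all and in Snhg8 (30 bases before the start), Snhg1 (29 before, on the other strand) and Snhg3 (23 after). A match is a string of letters and was not tested for binding.

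After a filter on barcodes, LB held 1783 cells with 45490517 UMIs and a median of 25418 UMIs per cell, and LBPXRS 2705 cells with 51832444 UMIs and a median of 19058. The libraries stood apart in more than medium. The 4 Y-linked genes with UMIs gave 2872 UMIs in LB and 1 in LBPXRS, and genes of chromosomes 8 and 11 had median log2 ratios of -0.61 and -0.63 against -0.10 for the other chromosomes. No member lies on 8, 11 or Y. The part of these differences in the results was not tested. Pou5f1, which marks pluripotent cells, was at 718.7 CPM (UMIs of a gene per 1000000 UMIs of the cells) in LB and 989.9 in LBPXRS. Naive pluripotency markers summed to 1312 and 1915 CPM, mesoderm markers to 335 and 5.92, trophoblast markers to 468 and 119, and primitive endoderm markers to 176 and 472. The libraries shared 8 of the kept cell barcodes. With 1 library per condition no test between conditions was possible. The 95% intervals are exact but reflect counting error alone.

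Of the 8 host RNAs, 6 had higher CPM in LBPXRS than in LB. In LB Gas5 stood at 789.8 CPM (782 to 798). In LBPXRS it stood at 2810 CPM (2796 to 2824), which is 3.56-fold higher. Folds are plain ratios of CPM, while log2 ratios and the counts of genes past a fold use a pseudocount of 1. Snhg12, a host of both box C/D and box H/ACA snoRNAs, stood at 40.2 CPM (38.4 to 42.1) and 100.8 CPM (98.1 to 104), 2.51-fold (2.38 to 2.65). Snhg6, which carries Snord87, stood at 91.9 and 192.0 CPM, 2.09-fold (2.01 to 2.17). These 3 were at least 2-fold higher, where 7.98% of 7661 genes were, counting all genes that reached 10 CPM in 1 library or the other. None of the 8 was at least 2-fold lower, where 10.4% of all genes were. The comparison has no replicate check.

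Smaller differences were seen for Snhg3 (45.0 and 75.1 CPM, 1.67-fold), Snhg1 (160.2 and 253.5 CPM, 1.58-fold) and Snhg8 (96.0 and 138.0 CPM, 1.44-fold). Zfas1, a transcript antisense to the start of Znfx1, stood at 225.0 and 217.3 CPM, a log2 ratio of -0.05 that became 0.10 with TMM scaling. Epb41l4aos was lower in LBPXRS, at 60.9 and 47.5 CPM, 0.780-fold (0.739 to 0.824). The members' median log2 ratio was 0.69, against -0.17 over all 7661 genes, and TMM scaling moved the latter to -0.0071. From the largest log2 ratio down, the members took ranks 196 (Gas5), 403 (Snhg12), 571 (Snhg6), 912 (Snhg3), 1014 (Snhg1), 1265 (Snhg8), 3254 (Zfas1) and 4736 (Epb41l4aos) of the 7661. Gas5 alone gave 52.3% of the members' UMIs in LB and 73.3% in LBPXRS. The 8 together summed to 1509 and 3834 CPM, and the sum without Gas5 had a log2 ratio of 0.51.

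**Figure D1:**
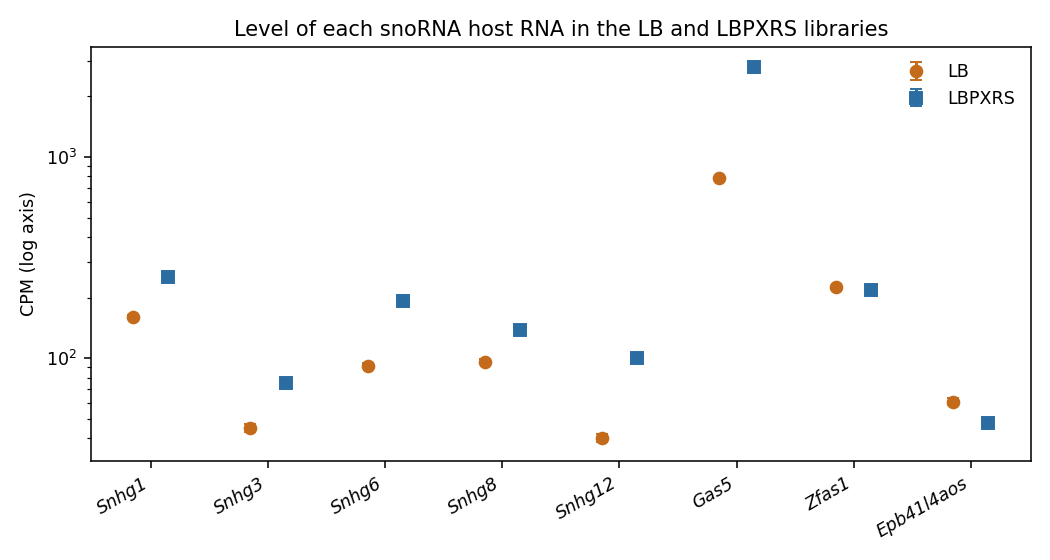
Level of each host RNA (CPM, log axis) in the LB library (circles) and the LBPXRS library (squares). Bars are 95% Poisson intervals and are mostly smaller than the points. Gas5 reached 2810 CPM in LBPXRS, while Zfas1 differed little between the libraries.

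Some of these values may hold reads of neighbours. Whether strand was used in the counting is not given in the sources used here. Strand would not part genes that overlap on the same strand, as Rcc1 and Snhg3 do. Of the neighbours below, Slc3a2, Trnau1ap and Epb41l4a are not annotated as overlapping their hosts. Rcc1, a chromatin-bound exchange factor that overlaps Snhg3 on the same strand, stood at 59.4 CPM in LB and 48.6 in LBPXRS, a log2 ratio of -0.29, while Snhg3 was higher. Slc3a2, the amino acid transporter subunit that starts 106 bases from Snhg1 in the other direction, stood at 152 and 237 CPM, a log2 ratio of 0.63 beside 0.66 for Snhg1. Trnau1ap, which lies beside Snhg12 on the opposite strand, stood at 71.0 and 133 CPM (log2 0.90), and Epb41l4a, for which Epb41l4aos is named, had a log2 ratio of -0.87 beside -0.35 for Epb41l4aos. Gas5, Snhg6 and Zfas1 overlap Zbtb37, Mcmdc2 and Znfx1 on the opposite strand.

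The comparison was repeated with parts of LB. Restricted to the LB cells whose clusters carried naive pluripotency markers, the members' median log2 ratio was 0.50. That group was made of a cluster of 504 cells and another of 262 cells, the latter with Calb2 and Nkx6-2 among its leading genes. The median was 0.68 against the cluster of 504 cells alone, close to the 0.69 of the whole library, and 0.38 against the cluster of 262 cells alone. Against the latter, 1 of the 8 members (Gas5, log2 1.41) was at least 2-fold higher in LBPXRS, where 8.72% of all genes were, and Snhg1 (log2 -0.08) and Zfas1 (log2 -0.99) had ratios below 0. Against the cluster of 504 cells alone, Snhg1 had a log2 ratio of 0.95, Zfas1 0.30 and Gas5 1.92. Between these clusters of LB, Snhg1 and Zfas1 thus differed by more than between the libraries, and Gas5 by less.

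Within LB that cluster of 262 cells had the highest level of 6 of the 8 members: Gas5 at 1056 CPM, Zfas1 at 433, Snhg1 at 268.5, Snhg6 at 151, Epb41l4aos at 84.1 and Snhg12 at 56.6. Snhg3 was about as high in that cluster (56.3 CPM, 50.6 to 62.3) as in the other naive pluripotent-like cluster (56.7 CPM, 52.8 to 60.7). Snhg8 was highest in the formative or primed pluripotent-like cluster (111 CPM, 104 to 119). Its interval overlapped those of both naive pluripotent-like clusters (101 CPM in each). A trophoblast-like cluster of 62 cells was lowest for 7 of the 8, with Gas5 at 511 CPM and Zfas1 at 98.1. Of the 7, the intervals of Snhg6, Snhg8, Snhg12, Gas5 and Epb41l4aos there overlapped those of another cluster. Snhg3 was lowest in a cluster without a name that had T among its leading genes (25.5 CPM). Its interval there overlapped that of the trophoblast-like cluster. Zfas1 spanned 4.42-fold between LB clusters and Snhg8 1.74-fold. The members and the trio had been left out of the genes used for clustering.

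In LBPXRS no cluster met all the conditions for a name. A cluster of 1024 cells (37.9%) had 3 raised trophoblast markers and one of 82 cells (3.03%) had 3 raised naive markers, but the markers of those classes had median log2 ratios of 0.62 and 0.38, under the 1 required. Snhg12 and Snhg1 were among the 10 leading genes of 1 cluster of 515 cells, beside the hosts Snhg16 and Snhg5 and the stress gene Ppp1r15a. In that cluster Gas5 stood at 3665 CPM, Snhg1 at 384 and Snhg12 at 154. In the cluster of 1024 cells, the largest, led by Krt8 and Krt18, they stood at 2198, 162 and 56.2 CPM. Snhg3 spanned 58.5 to 87.5 CPM over the 7 clusters, of which the lowest (37.1 to 87.8) held 82 cells. Gas5 was at 1898 CPM in its lowest LBPXRS cluster and at 1056 CPM in its highest LB cluster.

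The spread of the RNAs from cell to cell was compared after thinning every cell to 5000 UMIs, which left out 50 LB and 84 LBPXRS cells. In LB 93.8% of cells held Gas5 (92.5 to 94.9), and in LBPXRS 99.8% did (99.6 to 99.9), with medians of 4 and 12 UMIs. The lowest and highest 10% of LB cells ended at 1 and began at 8 UMIs of Gas5, and those of LBPXRS at 5 and 23, with the highest cells at 18 and 71. The distributions overlapped, with LBPXRS lying higher over its whole range. Snhg6 was seen in 35.4% and 60.5% of thinned cells, Snhg12 in 17.4% and 34.9%, Snhg3 in 18.2% and 30.4%, Snhg1 in 49.2% and 59.1%, and Snhg8 in 37.3% and 48.3%. Zfas1 was seen in 57.2% and 58.1%, and Epb41l4aos in 25.6% and 20.9%. Without thinning, the shares ranged from 57.9% (Snhg12) to 98.3% (Gas5) in LB and from 55.5% (Epb41l4aos) to 99.7% (Gas5) in LBPXRS. The share that free RNA alone would give was not measured, so these are shares of cells with a UMI and not of cells that express the gene.

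**Figure D2:**
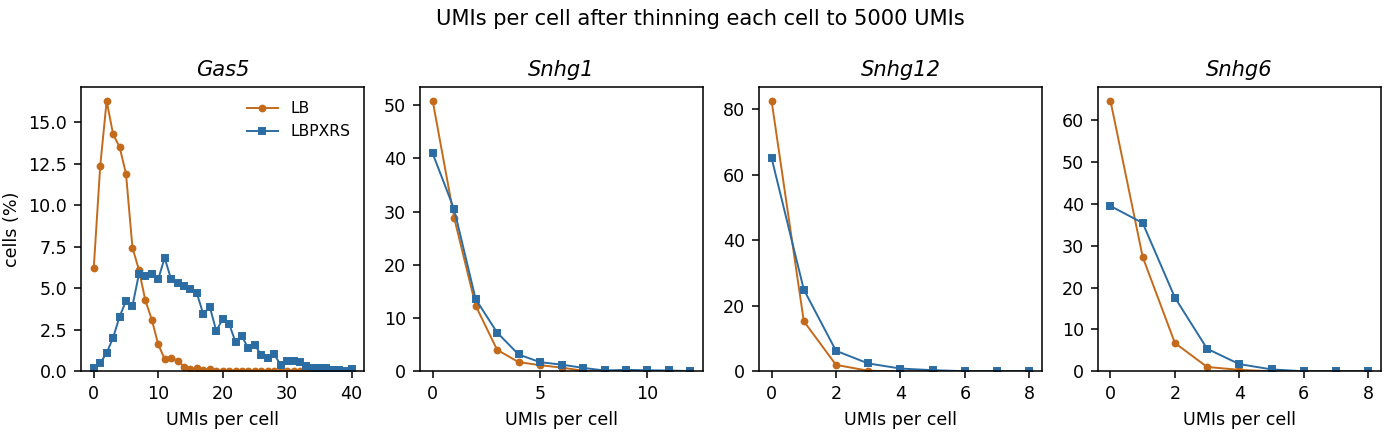
Share of cells (%) by the number of UMIs per cell of Gas5, Snhg1, Snhg12 and Snhg6, after thinning each cell to 5000 UMIs, in LB (circles) and LBPXRS (squares). The Gas5 median was 4 UMIs in LB and 12 in LBPXRS, while a large share of cells held 0 UMIs of the other 3.

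Variability beyond counting noise was given as the excess squared coefficient of variation, (variance - mean)/mean squared, of the thinned counts. Over all genes its median was 0.218 in LB (7062 genes) and 0.157 in LBPXRS (6776 genes). Snhg1 was the most uneven host in both libraries, at 0.985 and 1.06. Zfas1 followed in LB at 0.919 and was 0.548 in LBPXRS. Snhg12 was at 0.277 in LB and 0.866 in LBPXRS. Gas5 was at 0.261 and 0.224 and Snhg3 at 0.294 and 0.304. Snhg6 was at 0.166 and 0.058, and Epb41l4aos at 0.040 and 0.048, the lowest of the 8 in both. Snhg1, Zfas1 and, in LBPXRS, Snhg12 were thus the uneven hosts, the others lay near or below the value of all genes or somewhat above it, and the RNA with the highest level, Gas5, was not the most uneven.

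At least 1 UMI of the trio was seen in 801 LB cells (44.9%) and 2269 LBPXRS cells (83.9%). Between the libraries Chac1 stood at 10.3 and 23.6 CPM, Trib3 at 17.2 and 70.2, and Ddit3 at 14.6 and 130.3. In each library the cells with a trio UMI were divided by their trio share into 3 groups of about equal size, called low, middle and high, and the high group was compared with the cells without any. That was 267 against 982 cells in LB, with a cut at 92.5 CPM, and 756 against 436 cells in LBPXRS, with a cut at 303 CPM. The shares form a range and not separate types: 69 LB cells and 257 LBPXRS cells lay within 10% of the cut. Median depth was 26829 against 23774 UMIs in LB and 20029.5 against 15205 in LBPXRS.

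Within LBPXRS, 4 of the 8 hosts were at least 1.5-fold higher in the cells with the highest trio share, where 2.38% of 7091 genes were. Snhg1 stood at 131 CPM in cells without a trio UMI and at 174, 279 and 362 CPM in the low, middle and high groups, and the last over the first was 2.77-fold (2.57 to 2.98). Snhg12 stood at 58.4, 77.5, 109 and 135 CPM, 2.30-fold (2.06 to 2.58). Both were higher at every step, by more than the counting intervals. Zfas1 stood at 155, 180, 231 and 268 CPM (1.73-fold), and Gas5 at 2079, 2524, 2924 and 3302 CPM (1.59-fold). None of the 8 was at least 1.5-fold lower, where 3.40% of all genes were. With the trio left out, Snhg1 ranked 7, Snhg12 18, Zfas1 59 and Gas5 113 of 7088 genes by this ratio. With every cell thinned to 5000 UMIs Gas5 no longer passed (log2 0.45). Among the top 10% of cells by trio share against all others, Gas5 (0.31) and Zfas1 (0.50) did not pass. With Ddit3 left out of the share, Snhg1 alone passed, beside 2.33% of all genes.

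The other hosts differed less. Snhg8 had a log2 ratio of 0.38, Snhg6 of 0.25 and Epb41l4aos of 0.23. Snhg3, the host of both Snora73 copies, stood at 74.4, 75.5, 74.4 and 75.8 CPM, 1.02-fold (0.915 to 1.14), although it was 1.67-fold higher in LBPXRS than in LB. Snhg3 and Snhg12 are neighbours on chromosome 4 and showed the least and the second largest ratio of the 8. The ribosomal protein share was 37.7% in both end groups and the G2/M gene sum was 1571 and 1577 CPM. The S phase gene sum was 1064 CPM without a trio UMI and 908 in the high group, and the mitochondrial share was 3.0% and 2.31%. The part of these in the result was not tested. Over cells, the Spearman correlation of the summed hosts with the trio share was 0.37 in LBPXRS (2705 cells) and 0.26 after thinning, and it ranged from 0.080 to 0.40 within the 6 clusters of at least 100 cells. In LB (1783 cells) it was 0.15, 0.061 after thinning and 0.035 to 0.24 within 5 clusters. The cells of each share 1 library, and both shares have the same total as denominator.

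**Figure D3:**
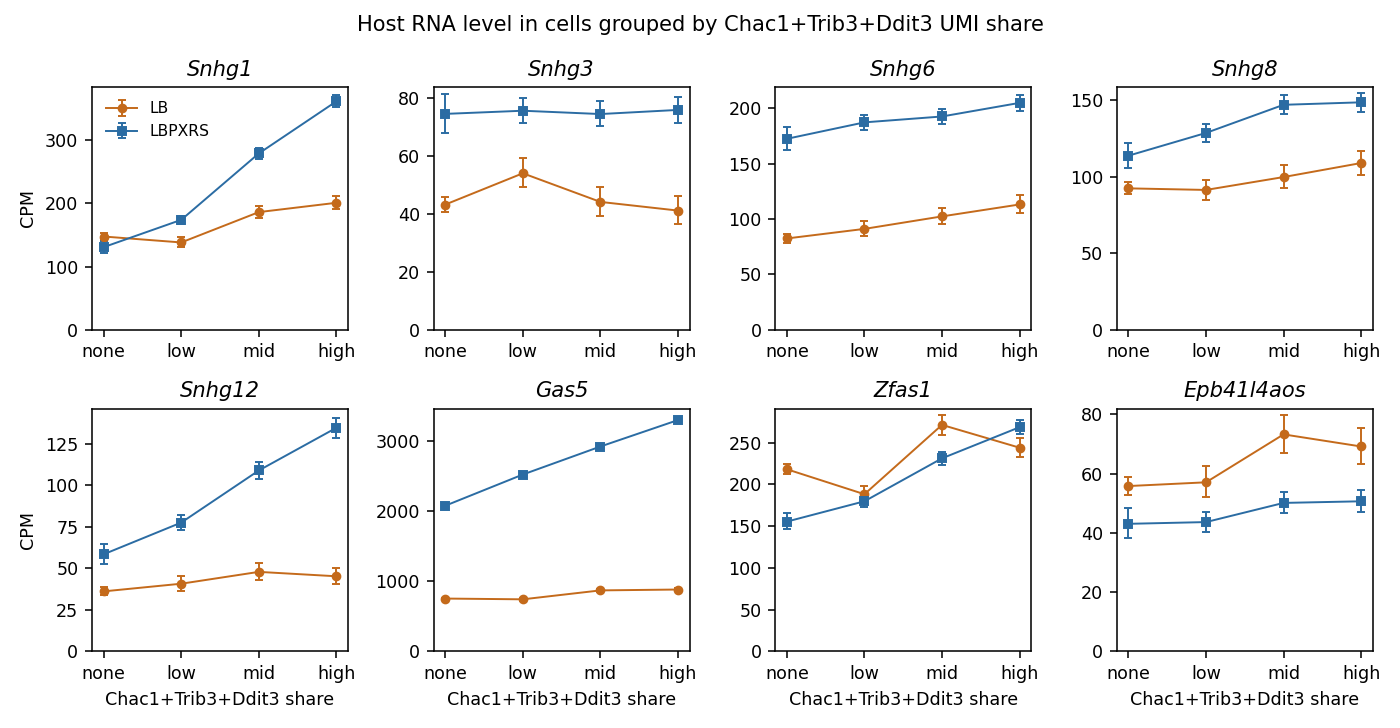
Level of each host RNA (CPM, from 0) in cells without a trio UMI and in the low, middle and high groups of trio share, in LB (circles) and LBPXRS (squares). Bars are 95% Poisson intervals. In LBPXRS Snhg1 went from 131 to 362 CPM, whereas Snhg3 stayed between 74.4 and 75.8 CPM. The groups have different cut points in the libraries.

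By the same division within LB, 0 of the 8 hosts was at least 1.5-fold higher, where 1.00% of 7275 genes were, and 0 was at least 1.5-fold lower, where 1.87% were. Snhg6 had a log2 ratio of 0.45, Snhg1 of 0.44, Snhg12 of 0.32 and Epb41l4aos of 0.30. Snhg8, Gas5 and Zfas1 had log2 ratios of 0.24, 0.23 and 0.16, and Snhg3 of -0.07. The summed hosts stood at 1429, 1403, 1694 and 1705 CPM over the 4 groups, a log2 ratio of 0.25, against 2827, 3390, 4007 and 4546 CPM and 0.69 in LBPXRS. In LB this ratio was 0.054 within the largest cluster and -0.016 with Ddit3 left out of the share, and Snhg6 was at 0.15 in thinned cells. All genes had median log2 ratios of -0.048 in LB and -0.013 in LBPXRS. Whether the relation differs between conditions was not tested.

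**Figure D4:**
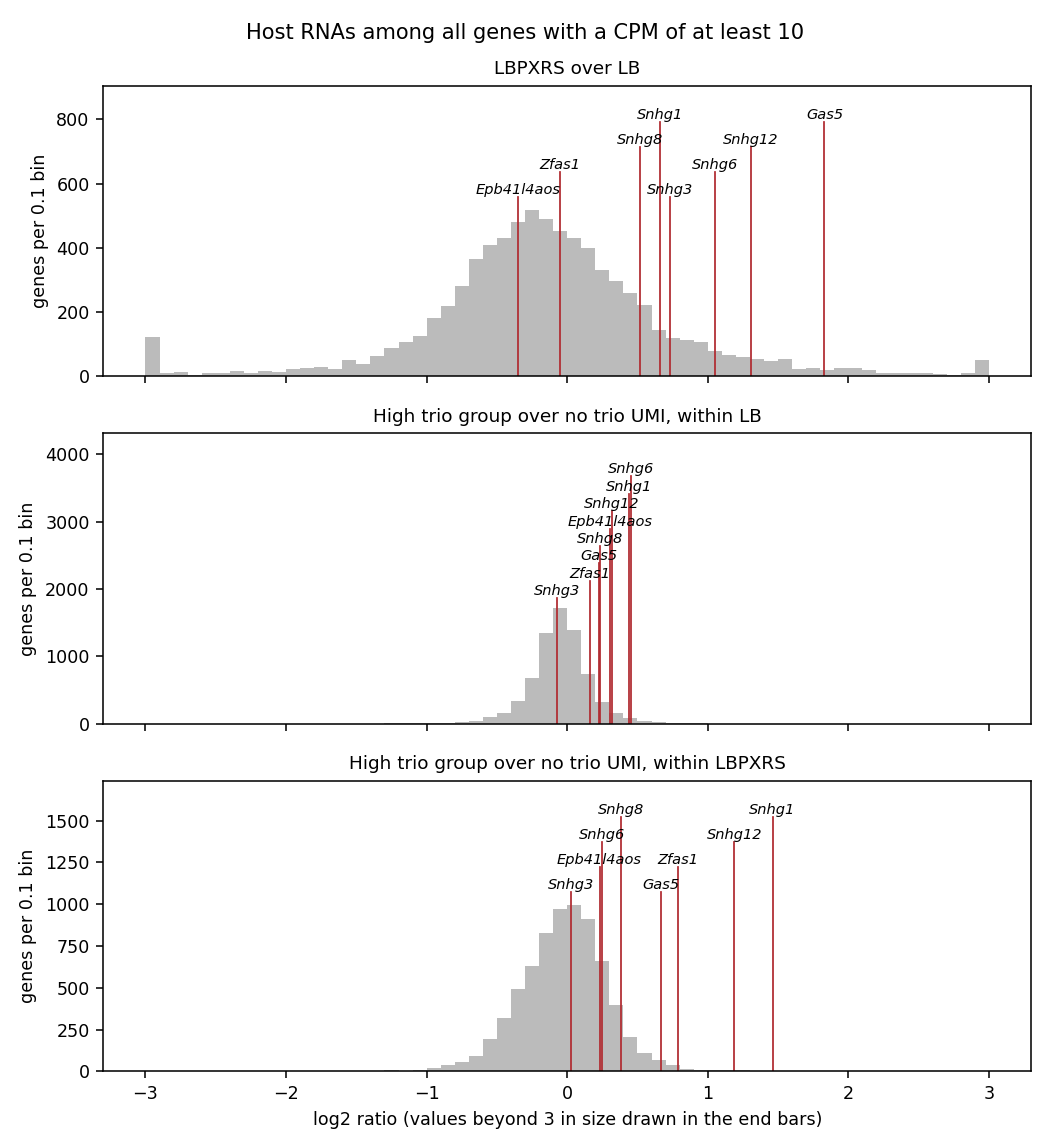
Number of genes by log2 ratio, in steps of 0.1, for LBPXRS over LB and for the high trio group over cells without a trio UMI within each library, with the 8 hosts drawn as red lines. Snhg1 (1.46) and Snhg12 (1.19) lie in the upper tail within LBPXRS, and Gas5 (1.83) between the libraries.

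The ratio of the summed hosts was larger for Ddit3 than for Chac1 or Trib3 in both libraries. When cells were grouped by 1 gene at a time, a division chosen after the trio result was seen, the high group for Ddit3 over cells without a Ddit3 UMI gave a log2 ratio of the summed hosts of 0.70 in LB and 0.63 in LBPXRS. For Trib3 alone the values were -0.0040 and 0.25, and for Chac1 alone -0.15 and 0.013. Grouped by Chac1, 1 host was at least 1.5-fold lower in LB, Zfas1 at 0.613-fold (0.550 to 0.681), where 2.37% of all genes were. Snhg1 in LBPXRS was still past 1.5-fold with Trib3 alone (log2 0.71) and with Ddit3 left out of the share (0.69). The Ddit3 grouping compared 140 with 1362 LB cells and 650 with 754 LBPXRS cells, at median depths of 23345.5 and 24928.5 UMIs in LB and 19779 and 16165.5 in LBPXRS. Ddit3 was seen in 23.6% of LB and 72.1% of LBPXRS cells, Trib3 in 26.9% and 57.7%, and Chac1 in 14.97% and 27.8%. The part of detection and depth in the difference between the 3 genes was not tested. The ribosomal protein share of cells high in Ddit3 was 37.6% against 34.5% in LB and 38.7% against 37.2% in LBPXRS. For Chac1 it was 34.2% against 35.0% in LB and 36.0% against 38.3% in LBPXRS, and for Trib3 34.6% against 34.7% and 36.5% against 38.5%, and its part in the result was not tested.

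With Ddit3 alone, 4 hosts were at least 1.5-fold higher in each library, beside 2.85% of all genes in LB and 1.18% in LBPXRS. Snhg1 stood at 143 CPM without a Ddit3 UMI and 322 CPM in the high group in LB, 2.26-fold (2.11 to 2.41), and at 157 and 365 CPM in LBPXRS, 2.32-fold (2.20 to 2.45). Zfas1 stood at 205 and 396 CPM in LB, 1.93-fold, and at 164 and 295 CPM in LBPXRS, 1.80-fold. Gas5 stood at 748 and 1154 CPM in LB and at 2226 and 3411 CPM in LBPXRS, 1.54-fold and 1.53-fold. These 3 had close ratios in both libraries. The fourth host differed: Snhg6 in LB (1.76-fold, and 1.17-fold in LBPXRS) and Snhg12 in LBPXRS (2.15-fold, and 1.31-fold in LB). Snhg3 was at 0.896-fold (0.746 to 1.07) and 0.945-fold (0.862 to 1.04), intervals that hold 1 in both.

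Ddit3 itself ranged from 8.02 CPM (6.19 to 10.2) to 25.2 CPM (21.5 to 29.4) over 6 of the 7 LB clusters, and the cluster of 57 cells, the one of lowest depth, held 2 Ddit3 UMIs. The highest values were in the naive pluripotent-like cluster of 262 cells, where the hosts were also high, and in the unnamed cluster with T among its leading genes (25.1 CPM). Within each of the 5 LB clusters of at least 100 cells, the summed hosts were higher in the cells high in Ddit3, with log2 ratios of 0.21 to 0.83 from 12 to 35 such cells a cluster. In 2 of the 5 the ratio, 0.21 and 0.27, was well below the 0.70 of the whole library. Snhg1 was higher in all 5 (0.19 to 1.25) and so was Gas5 (0.26 to 0.72). In LBPXRS the summed hosts were higher in 6 of 6 clusters, with log2 ratios of 0.060 to 0.53, and Snhg1 in all 6 (0.63 to 1.47). These clusters had 27 to 206 cells high in Ddit3 and 11 to 383 cells without a Ddit3 UMI. The cluster with 11 such cells gave a Snhg1 ratio of 1.42. Values of all genes within clusters were not computed. The lowest value of the summed hosts, 0.060, was that of the cluster of 515 cells with hosts among its leading genes. Snhg3 was above 0 in 2 of the 5 LB clusters and in 2 of the 6 LBPXRS clusters.

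**Figure D5:**
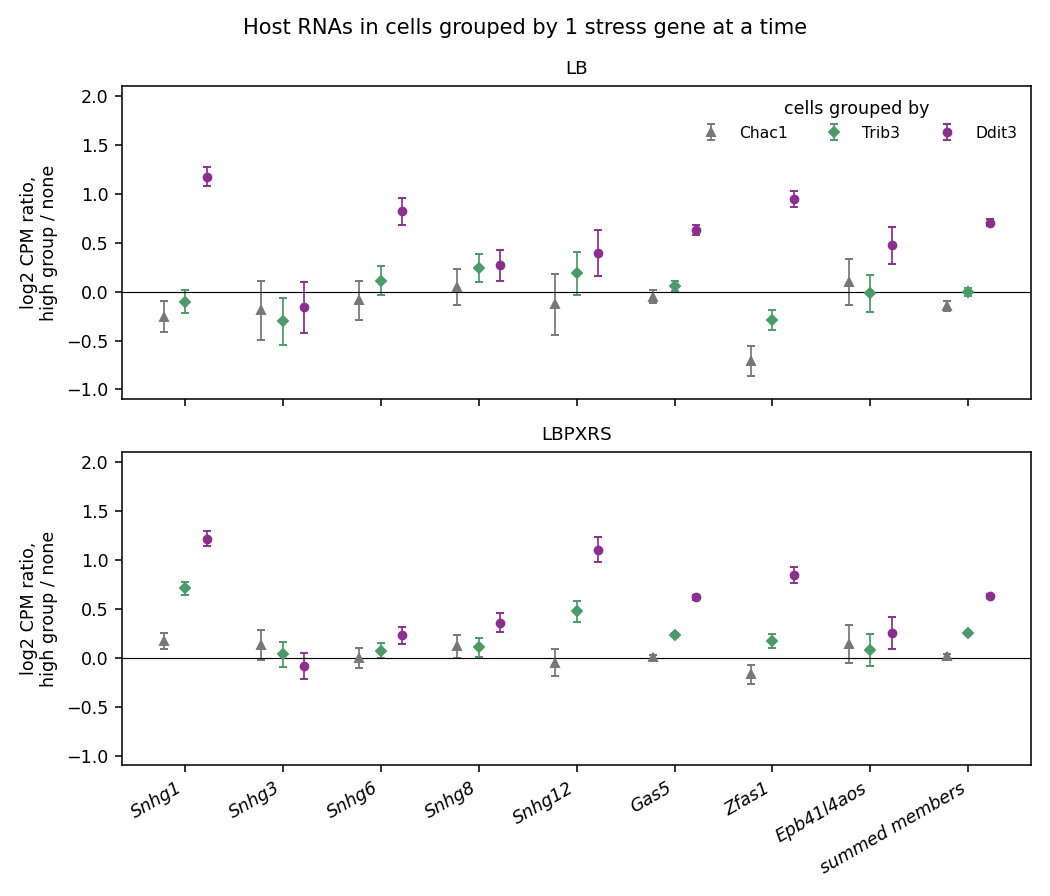
Log2 ratio of CPM, high group over cells without a UMI, of each host and of the 8 summed, when cells are grouped by Chac1 (triangles), Trib3 (diamonds) or Ddit3 (circles) alone, in LB and LBPXRS. Bars are 95% counting intervals and no pseudocount is used. The Ddit3 points of Snhg1, Gas5 and Zfas1 lie above 0 in both libraries, while the Chac1 points of Zfas1 lie below.

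Cells with like trio shares were set side by side across the libraries with common cut points. The cells without a trio UMI were 982 in LB and 436 in LBPXRS, at median depths of 23774 and 15205 UMIs. The part of depth in which cells held no trio UMI was not tested. Among these cells, Gas5 was 2.76-fold higher in LBPXRS (2.70 to 2.82), Snhg6 2.09-fold, Snhg3 1.72-fold and Snhg12 1.62-fold. Snhg1 was at 0.886-fold (0.821 to 0.956) and Zfas1 at 0.713-fold. Among cells with a share above 100 and up to 300 CPM (216 LB and 1043 LBPXRS cells), Gas5 was at 3.25-fold, Snhg12 at 2.24-fold, Snhg1 at 1.29-fold and Zfas1 at 0.893-fold. In the range above 0 and up to 100 CPM, Snhg1 was at 0.969-fold (0.909 to 1.03) and Zfas1 at 0.783-fold. Above 300 CPM, where LB had 20 cells and LBPXRS 769, Snhg1 was at 1.82-fold (1.48 to 2.25) and Zfas1 at 1.41-fold (1.15 to 1.76), the opposite direction to its other 3 ranges. Thus the higher Snhg1 of the LBPXRS library was not seen among its cells without a trio UMI, whereas the higher Gas5, Snhg6 and Snhg3 were. The makeup of the share was not alike: between 100 and 300 CPM, Chac1 was at 47.4 CPM in LB and 21.5 in LBPXRS, and Ddit3 at 48.1 and 108.

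Related gene lists were read the same way, beside the shares of all genes given above for each comparison (7.98% at least 2-fold higher and 10.4% at least 2-fold lower between the libraries), and with lists this short several counts are near those shares. Of 16 other noncoding hosts, 13 could be compared between the libraries: 2 were at least 2-fold higher in LBPXRS (Snhg18 and Snhg20, log2 1.38 each, with the pseudocount), 1 was at least 2-fold lower (Snhg14, -1.59) and Snhg4 was at -0.36, with a median of 0.36. Snhg10 (2.08-fold) and Snhg11 (2.02-fold) were past 2-fold only without the pseudocount. Without 4 of them that lie on chromosomes 8 and 11 (Snhg15, Snhg16, Snhg20 and 2410006H16Rik) the median was 0.051. Within LBPXRS 4 of 12 were at least 1.5-fold higher in the high trio group, Snhg5 (log2 1.42), 2410006H16Rik (1.01), Snhg15 (0.99) and Snhg16 (0.93). Snhg20, like Snhg3, was higher in LBPXRS without following the trio share (-0.07). Within LB 1 of 11, Snhg5 (0.60), was. Grouped by Ddit3 alone, 3 of 11 other hosts were at least 1.5-fold higher in LB and 4 of 12 in LBPXRS.

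Protein-coding genes can carry snoRNAs too. Of 33 such hosts, 2 were at least 2-fold lower in LBPXRS, Hspa8 (log2 -1.12), a chaperone, and Eif4a1 (-1.11), a translation initiation helicase on chromosome 11. None was 2-fold higher, with Rpl13a (0.66) and Dkc1 (0.60) at the top. None of the 33 was 1.5-fold higher or lower with the trio share in either library. Of 15 translation messengers with pyrimidine starts, 0 passed either fold threshold in any of the 3 comparisons, with a median log2 ratio between the libraries of -0.03. Of 12 snoRNP proteins, which bind and modify with snoRNAs, 2 were at least 2-fold lower in LBPXRS, Naf1 (-1.60) and Gar1 (-1.0), and 0 higher, with a median of -0.28. Naf1 is on chromosome 8, and the 10 snoRNP genes outside chromosomes 8 and 11 had a median of -0.21. Of 14 nonsense-mediated decay factors, 3 were at least 2-fold lower, Eif4a3 (-1.32), Smg8 (-1.06) and Magoh, and 0 higher, with Smg9 at 0.81 and a median of -0.46. Of these 14 genes, 6 lie on chromosomes 8 and 11, whose genes were low in LBPXRS as a whole, Eif4a3 and Smg8 among them. The 8 decay factors on other chromosomes had a median of 0.0011, with 1, Magoh (-1.02), at least 2-fold lower. None of the decay factors and snoRNP proteins was 1.5-fold higher or lower with the trio share in either library.

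Of 17 comparable genes of the ATF4 stress response outside the trio, 4 were at least 2-fold higher in LBPXRS, Nupr1 (log2 3.75), Cth (2.69), Asns (1.52) and Cebpb (1.07), and 0 were 2-fold lower, with Slc7a5 (-0.70) and Stc2 (-0.54) lowest. Both of these lie on chromosomes 8 and 11, and the other 15 had a median of 0.63. With the trio share, 6 of 17 were at least 1.5-fold higher in LB and 9 of 17 in LBPXRS. Of 10 genes of the unfolded protein response of the endoplasmic reticulum, 0 were 2-fold different between the libraries, and 1, Herpud1 (log2 1.55 in LB and 1.33 in LBPXRS), was at least 1.5-fold higher with the trio share in each. Of 12 S phase and 12 G2/M genes, 0 were 2-fold different between the libraries. With the trio share in LBPXRS, 1 S phase gene, Cdc6 (log2 -0.61), was at least 1.5-fold lower, the median over the 12 was -0.38 and that of the G2/M genes was -0.04. In LB none passed and the medians were -0.18 and -0.11. The part of this in the host result was not tested.

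By likeness over cells, the genes outside the set closest to the summed hosts, among 4064 genes that reached 20 CPM in both libraries, included 2410006H16Rik, Rpl10a, Rpl23a and Rps20. The measure was the mean over both libraries of Pearson's r between log-scaled levels over 1783 and 2705 cells. For 2410006H16Rik, another noncoding host, r was 0.69 in LB and 0.77 in LBPXRS, and it stood at 810 and 1306 CPM. The ribosomal protein genes Rpl10a, Rpl23a and Rps20 had means of 0.45 to 0.46. The points share depth and library, and the values are a description. Among the 28 pairs of members, Spearman's rho on thinned counts ran from -0.0019 to 0.26 in LB and from -0.016 to 0.34 in LBPXRS, with Gas5 and Zfas1 the highest pair in both.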

How the data were processed

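The 2 libraries (10x Genomics 3′ chemistry), 1 per condition, were analysed here. The authors deposited UMI counts per gene and barcode, which come from Cell Ranger 4.0.0 run on mm10, per the submitters' processing notes. The annotation and the strand setting are not given in the sources used here. Barcodes with at least 1000 genes and at most 10% mitochondrial UMIs were kept, which left out 225 LB and 406 LBPXRS barcodes. Scrublet marked only 5 and 2 cells as doublets, and how well the caller worked was not tested. Doublets were not removed. UMIs were summed per library, cluster or group of cells and given as CPM. Ratios are log2((CPM + 1)/(CPM + 1)), and genes needed a CPM of at least 10 on either side. Intervals are exact (Poisson for counts, Clopper-Pearson for shares) and cover counting error only. Each library was clustered with scanpy 1.11.5 (2000 variable genes, 30 components, 15 neighbours, Leiden resolution 0.5), without the hosts and the trio. For a name, a cluster needed 3 raised markers of 1 class, more than of any other, with a median log2 ratio of at least 1 over that class's markers. It also needed no larger number of another class's markers among its 10 leading genes, and a depth above its library's median divided by 3 or a marker of the class among those genes. The median kept clusters of 12.3% (mesoderm) and 3.20% (naive) of LB cells without a name. Genes at least 2-fold apart between libraries, or 1.5-fold between groups of cells, were counted by size alone, since 1 library per condition allows no test. All 8 members are named, and of the other lists the 2 highest and 2 lowest log2 ratios between the libraries, where they matter. Beyond that rule, the other hosts that passed 1.5-fold, the neighbours and the leading genes of clusters were named after their values were seen. The members, the lists and the rules were chosen with earlier results of these data known. TMM factors came from edgeR 4.0.16. The steps were tested on simulated data. Of the gene identifiers, 99.8% were found in GENCODE M21, whose coordinates are given. Of the 5 genes most like the hosts over cells, 1 is not reported here.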

Additional observations from a re-analysis of the deposited data

Results flagged for a closer look

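The barcodes that the filter left out still held host RNA. In the 406 barcodes left out of LBPXRS the 8 hosts summed to 2033 CPM (1931 to 2140), of which Gas5 gave 1351 CPM, at a median of 1043 UMIs and a mitochondrial share of 11.3%. In the 225 left out of LB they summed to 970 CPM (901 to 1044), with Gas5 at 438 CPM, a median of 1801 UMIs and a mitochondrial share of 17.4%. Both sums were below those of the kept cells, 3834 and 1509 CPM. Apart from the alternative setting that took all deposited barcodes, these barcodes enter no other result. They were singled out because they carry signal outside the cells compared.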

How the results depend on the processing

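The median log2 ratio of the hosts between the libraries, 0.69, was above 0 under all 12 alternatives. It was 0.85 with TMM scaling, 0.50 against naive pluripotent-like LB cells, 0.38 against the LB cluster of 262 cells and 0.49 in cells without a trio UMI. Of the hosts, 3 were at least 2-fold higher, and 1 was against that cluster alone (8.72% of all genes). The count was 2 against naive pluripotent-like LB cells (8.88% of all genes), against the LB cluster of 504 cells (10.0%) and in cells without a trio UMI (8.94%). Within LB the log2 ratio of the summed hosts with the trio share, 0.25, was 0.17 in thinned cells, 0.37 in cells of middle depth, 0.21 for the top 10% of cells against the others, 0.054 in the largest cluster and 0.29 in cells at or below the median G2/M share. It was 0.37 without Chac1, 0.41 without Trib3 and -0.016 without Ddit3, and -0.15, -0.0040 and 0.70 for Chac1, Trib3 and Ddit3 alone. The count of hosts at least 1.5-fold higher in LB, 0, became 1 in thinned cells (Snhg12, beside 12.3% of all genes), in cells of middle depth (Snhg6, 3.25%), without Chac1 (Snhg1, 1.18%) and without Trib3 (Snhg1, 1.20%), and 4 for Ddit3 alone (2.85%). Within LBPXRS the ratio, 0.69, was 0.48 in thinned cells, 0.76 in cells of middle depth, 0.34 for the top 10%, 0.63 in the largest cluster and 0.66 at or below the median G2/M share. It was 0.71 without Chac1, 0.63 without Trib3 and 0.24 without Ddit3, and 0.013, 0.25 and 0.63 for Chac1, Trib3 and Ddit3 alone. The count, 4, became 3 in thinned cells (without Gas5, beside 3.43% of all genes), 1 without Ddit3 (Snhg1, 2.33%), 2 for the top 10% (Snhg1 and Snhg12, 0.673%), 0 for Chac1 alone (1.46%) and 1 for Trib3 alone (Snhg1, 1.63%). For Chac1 alone Snhg12 (-0.049) and Zfas1 (-0.17) in LBPXRS changed sign, as did Snhg6 (-0.00080). In LB Snhg1 (-0.25), Snhg6 (-0.088), Snhg12 (-0.12), Gas5 (-0.051) and Zfas1 (-0.70) did, as did Snhg1 (-0.12) and Zfas1 (-0.33) without Ddit3, Snhg1 (-0.10), Zfas1 (-0.29) and Epb41l4aos (-0.018) for Trib3 alone and Snhg12 (-0.051) in the largest cluster. Between the libraries Snhg1 did against the LB cluster of 262 cells (-0.082) and in cells without a trio UMI (-0.17), and Zfas1 with TMM scaling (0.10) and against the LB cluster of 504 cells (0.30). The cause was not tested. Of 320 values of single hosts under alternatives, 187 moved by less than their counting interval, 131 by more, and 2, Snhg12 and Zfas1 in LBPXRS, changed sign after having passed the fold threshold. In all, 23 differed in sign from the value reported, some of them near 0. Settings with 1 naive pluripotent-like LB cluster, with cells without a trio UMI, without the cluster of lowest depth and with 1 gene of the trio were added after seeing the data. No paired analysis was possible because the labels give 1 library per condition and no replicate numbers, and for the same reason no library could be left out. Depth limits the grouping by the trio, of which 44.9% of LB and 83.9% of LBPXRS cells held a UMI.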
